A study of Mus musculus with 15 samples.

Results

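Prmt5, Wdr77, Clns1a, Snrpb, Snrpd1, Snrpd2, Snrpd3, Snrpe, Snrpf and Snrpg encode the machinery that methylates the Sm proteins and the Sm proteins themselves. These 10 genes were taken from a named list, not from measured values, but that list was chosen with earlier results of these data known. All 10 were found among the 22219 protein-coding gene symbols of GENCODE vM1 on mm9. Chromatin immunoprecipitation with sequencing (ChIP-seq) mapped the transcription factor Myc and RNA polymerase II (RNAPII) in 3T9-MycER mouse fibroblasts, and Miz1 in these fibroblasts and in splenic B cells. The series holds 15 samples, of which 14 have peak lists used here, and the 6 RNAPII libraries each have a narrow and a broad list, which makes 20 lists. With 1 library per group there was no spread to test against, and differences are given as descriptions without p-values.

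The fibroblasts came from E13.5 embryos, carry floxed c-myc alleles (c-mycflox/flox) and were infected with a construct for MycER, a Myc fusion that 4-hydroxytamoxifen (OHT) switches on. The N262 antibody for Myc and the N20 antibody for RNAPII were used after 10, 20 and 30 min and 2 and 4 h in 400 nM OHT, against 0 min. Floxed alleles and MycER are shared by every fibroblast sample, 0 min included, and the lists do not separate MycER from the cell's own Myc. Miz1, a zinc finger protein encoded by Zbtb17 that can bring Myc to DNA, was profiled with antibody 10E2 in fibroblasts without activation and in B cells enriched with B220 beads from C57BL/6 wild-type mice aged 6 to 8 weeks. At 0 min RNAPII lay at the promoters of 10 of 12 fibroblast marker genes, missing Col5a1 and Thy1. It lay at those of 0 of 10 B cell marker genes and of 47.5% of all protein-coding genes. The B cell label was not checked this way, since no RNAPII list of B cells was used.

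Prmt5 lies at chr14:55126024-55136362 and Wdr77 at chr3:105762287-105787518, Clns1a at chr7:104845144-104867389 and Snrpb at chr2:129997150-130005139. Snrpd1 lies at chr18:10617794-10628228, Snrpd2 at chr7:19735071-19738084 and Snrpd3 at chr10:74980787-74998185. Snrpe lies at chr1:135500448-135506868, Snrpf at chr10:93045774-93052451 and Snrpg at chr6:86321534-86328896. Prmt5, Snrpb, Snrpe and Snrpf are on the minus strand.

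Spliceosomal small nuclear ribonucleoproteins (snRNPs) are built in the cytoplasm around a ring of Sm proteins that closes on the snRNA. Prmt5, an arginine methyltransferase, works with its WD-repeat cofactor Wdr77 (MEP50) and with Clns1a (pICln), a chaperone that holds Sm proteins before they enter the ring. This unit, the methylosome, places symmetric dimethylarginine on the tails of Sm B, D1 and D3, and the SMN complex then loads the ring on the snRNA. Prmt5 is also known as a gene that Myc activates in B cell lymphoma models.

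Myc was present at the promoters of all 10 genes after OHT and before it, and its peaks there ranked high in every list. A promoter peak here is one that overlaps the 1000 bp either side of a transcription start site (TSS), and a gene's value is that of its peak with the highest fold enrichment over the control. All 10 genes had a Myc promoter peak at 0, 10, 20 and 30 min and at 2 and 4 h, where 44.7%, 46.8%, 47.9%, 46.6%, 48.9% and 46.7% of all protein-coding genes had one. Their Myc summits lay between −196 and 404 bp from the nearest TSS, downstream positive.

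Sequence under the Myc 4 h summit is shown for the genes with an E-box, the DNA word that Myc and its partner Max bind. The words searched were CACGTG, the canonical E-box and its own reverse complement, and CACGCG, a variant read on both strands. They were looked for in the 200 bp around the summit, in mm9. Capitals mark the word in each 30-base stretch.
Wdr77: gcagaggtacacCACGTGtgcggtccctcc
Clns1a: gggaaccgatgcCACGTGacaaaagccagc
Prmt5: cctcccgctggaCACGCGgctgccaccagc
Snrpd3: tctcacgaatacCACGCGctcccagaatgc
Snrpf: cgggacaaacaaCACGCGgaaaggtggctg

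The Wdr77 stretch is chr3:105762413-105762442 on the plus strand, with its E-box 138 bp past the gene start in the 5′ UTR and 44 bp from the Myc summit. The Clns1a stretch is chr7:104845041-104845070 on the plus strand, with its E-box upstream of the gene, starting at −91 bp and 68 bp from the summit. For Prmt5 the variant lay in a coding exon, in chr14:55136140-55136169 on the plus strand, opposite to the gene. In Snrpd3 it lay just upstream of the gene, 6 bp from the Myc summit, in chr10:74980761-74980790 on the minus strand, also opposite to the gene. The Snrpf variant was intronic, in chr10:93052078-93052107 on the plus strand, opposite to the gene. Snrpb, Snrpd1, Snrpd2, Snrpe and Snrpg held neither word in that window.

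The canonical word was thus at the summit in 2 of 10 genes at 4 h, against 17.5% of genes with a Myc promoter peak and 14.2% of all Myc peaks. At 0 min it was in the same 2 of 10 genes, against 18.8% of genes with a peak and 15.8% of all peaks. Windows of that width centred on the 45961 protein-coding TSSs held it in 5.2%. With the variant added the count at 4 h was 5 of 10, against 37.0% of genes with a Myc promoter peak. The share among these genes is near that background for the canonical word. With so few genes, the count with the variant does not set them apart either. Within 1000 bp of the gene start, 4 of 10 genes held CACGTG, against 33.8% of all genes within that distance of a TSS. Beyond Wdr77 and Clns1a these were Snrpf, at −877 bp and outside its Myc 4 h peak, and Snrpg, at 583 bp in an intron and 731 bp from the summit. The 1000 bp around the TSS had a CpG observed-to-expected ratio of 0.618 in Snrpd3 to 0.909 in Snrpd1, against a median of 0.541 over all TSSs.

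**Figure D1:**
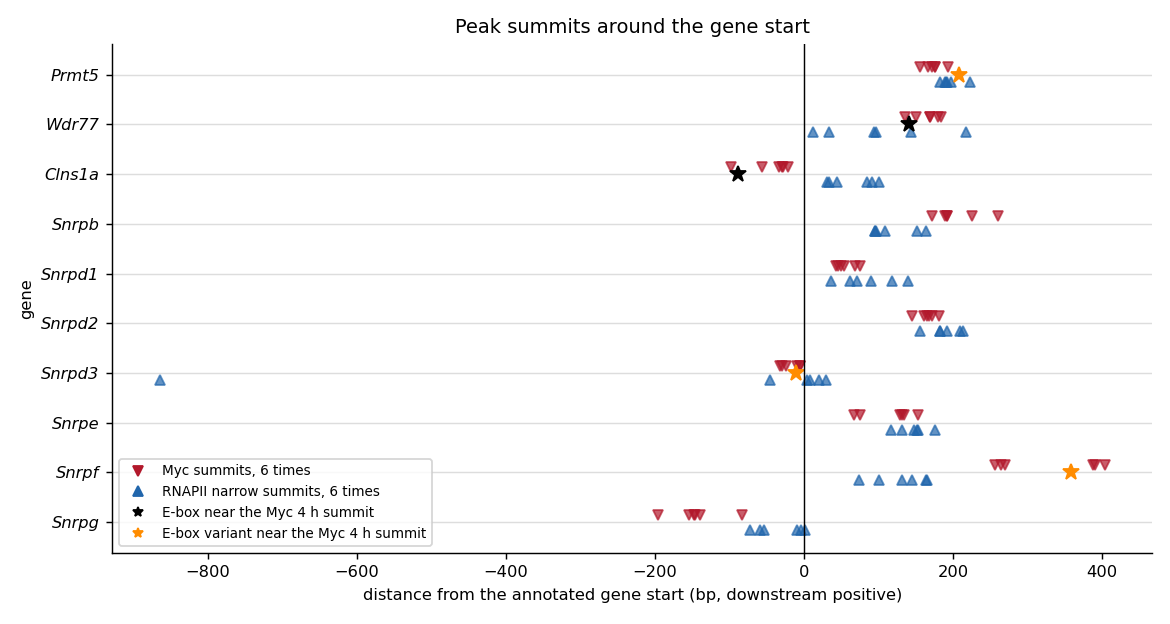
Distance of peak summits from the annotated gene start in bp, downstream positive, with 1 row per gene: red triangles are Myc summits and blue triangles narrow RNAPII summits at 6 times, black stars an E-box and orange stars the variant within 100 bp of the Myc 4 h summit. Summits of both factors lay near the start in every gene, except the RNAPII summit of Snrpd3 at 0 min at −865 bp.

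Fold enrichment belongs to the authors' calls and is ranked here only within a list. Where folds of separately called lists stand side by side, they cannot be read as a change. At 4 h the highest fold was that of Snrpd1, with 58.3, followed by Prmt5 with 54.0, Snrpb with 49.0 and Clns1a with 48.5. Snrpd3 had 47.7, Wdr77 46.8, Snrpe 41.2, Snrpd2 33.5, Snrpf 26.5 and Snrpg 23.3, and the median over all genes with a peak at 4 h was 18.3.

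At 0 min the methylosome genes led with Wdr77 at 38.4, Clns1a at 36.7 and Prmt5 at 35.5, and Snrpd3 followed with 33.9. Snrpd1 had 30.3, Snrpe 25.4, Snrpd2 23.9, Snrpb 23.6, Snrpg 20.5 and Snrpf 15.4. All were above 12.9, the median over all genes with a Myc promoter peak at 0 min. The order of neighbouring genes cannot be judged, since 1 library gives no spread.

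Within-list rank, the percent of all peaks of a list with a lower fold, placed these genes near the top. At 0, 10, 20 and 30 min and 2 and 4 h their median rank was 93.6, 95.2, 95.9, 95.1, 96.4 and 95.7%, where the median over all genes with a peak was 67.6, 71.0, 72.9, 70.9, 74.6 and 70.5%. All 10 exceeded the median gene at each time. The highest 10% of peaks of each list held 8, 10, 9, 8, 9 and 7 of these genes. Of all protein-coding genes, with or without a peak, it held 8.13%, 9.57%, 10.4%, 9.34%, 11.1% and 9.24%. Among genes with a Myc promoter peak, 1806 of 9929 were there at 0 min and 2052 of 10378 at 4 h. Prmt5 ranked between 96.7 and 98.5% in every list and Clns1a between 96.0 and 98.2%. Snrpg, which encodes Sm G, had ranks of 87.1, 90.4, 81.1, 77.0, 90.2 and 80.2%, and Snrpf, which encodes Sm F, 76.6, 91.0, 92.9, 88.3, 92.9 and 84.3%. These Sm genes held the lowest rank of the list at every time but 2 h, when Snrpd2 had 89.0%. Lists differ in length, so ranks at different times stand side by side and show no change.

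**Figure D2:**
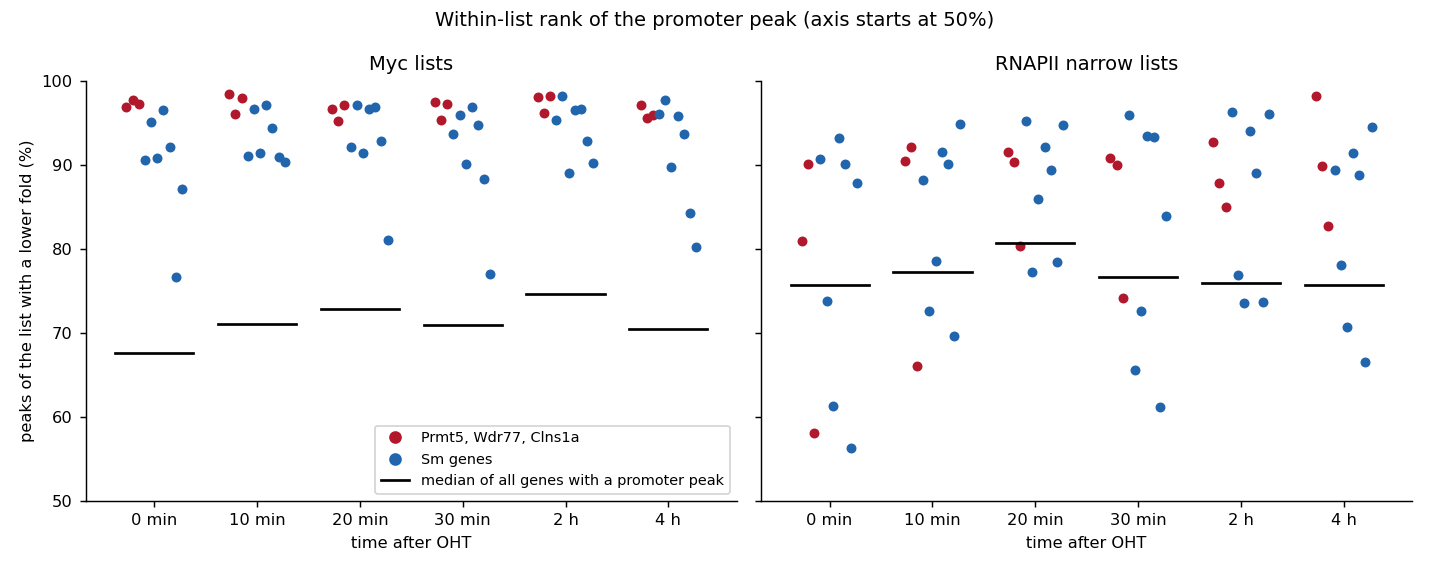
Within-list rank of the promoter peak of each gene (percent of the list's peaks with a lower fold, axis from 50 to 100%) at 6 times, Myc on the left and narrow RNAPII on the right. Each point is a gene, red for Prmt5, Wdr77 and Clns1a and blue for Sm genes, and bars are the median over all genes with a promoter peak. All Myc points lie above their bar, while 6 to 8 of 10 RNAPII points do.

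The number of Myc tags in each promoter peak per 1000000 tags of the library is called normalised Myc tags here. It was higher after OHT than at 0 min in all 10 genes at every time, as in most genes with Myc. Per tag inside peaks 4 to 8 of 10 were higher, where the median ratio over all genes was 0.94 to 0.981. Peaks were called separately at each time and differ in length, so tags per 1000 bp of peak are given beside the ratios. The 95% intervals given with these values cover counting error only, as Poisson intervals for levels and as exact binomial intervals for ratios. Prmt5 had 8.91, 15.8, 16.7, 14.4, 17.3 and 13.2 normalised Myc tags at 0, 10, 20 and 30 min and 2 and 4 h. Wdr77 had 12.6, 17.6, 17.5, 15.8, 21.0 and 16.6 normalised tags at the same times, and Clns1a had 11.6, 17.8, 18.4, 16.1, 21.7 and 17.3. All 3 methylosome genes were lowest at 0 min and highest at 2 h.

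The Sm genes followed the same order of times, with 2 h highest and 0 min lowest in each. Snrpd1, which encodes a methylated Sm protein, had 7.48, 13.7, 14.5, 12.8, 15.7 and 14.2 normalised tags from 0 min to 4 h. Snrpf had 4.70, 9.10, 11.4, 7.86, 12.8 and 7.54, the lowest level at 0 min. Snrpg, whose Myc peak was the longest of the 10 with 3436 bp at 0 min, had 13.1, 20.0, 20.8, 15.2, 22.1 and 17.0. Among the others, Snrpb, Snrpd2, Snrpd3 and Snrpe, levels ran from 5.47 in Snrpe to 10.7 in Snrpd3 at 0 min, from 11.9 in Snrpe to 19.3 in Snrpd3 at 2 h, and from 8.47 in Snrpe to 15.6 in Snrpd3 at 4 h. Longer peaks hold more tags, so levels are not comparable between genes, and between times only as far as the peak keeps its length.

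**Figure D3:**
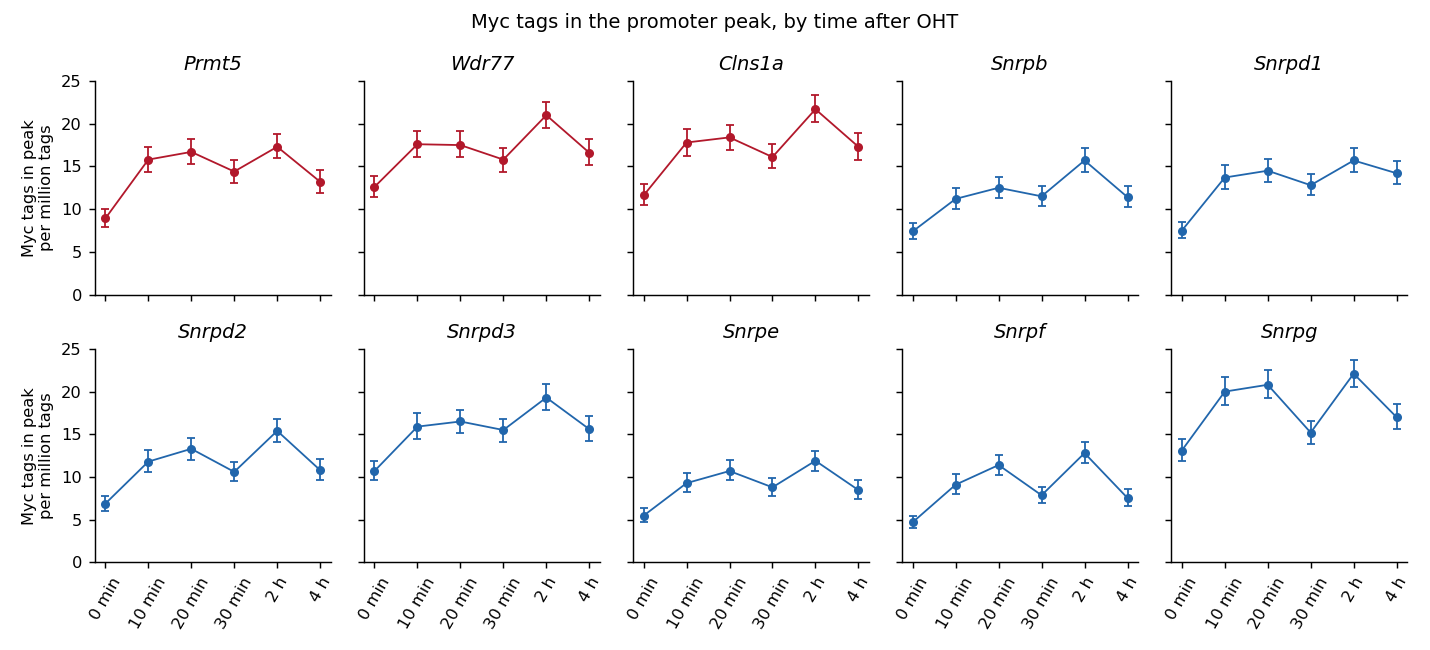
Myc tags in the promoter peak per 1000000 library tags at 6 times after OHT, with 1 panel per gene and 95% Poisson intervals of counting error as bars. In every panel the 0 min point is lowest and the 2 h point highest. The lowest point of all is Snrpf at 0 min with 4.70 and the highest Snrpg at 2 h with 22.1.

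Set against 0 min, the ratio of Snrpf at 2 h was 2.72 (95% counting interval 2.26 to 3.29), with a peak of 2038 bp at 2 h and 1770 bp at 0 min, and per 1000 bp of peak it was 2.37. At 4 h Snrpd1 had a ratio of 1.90 (1.62 to 2.23), with a peak of 1964 bp at 4 h and 1862 bp at 0 min, and 1.80 per 1000 bp. Prmt5 at 4 h had 1.48 (1.27 to 1.73), with 1990 bp at 4 h and 1924 bp at 0 min, and 1.43 per 1000 bp. On both scales Snrpf was highest of the 10 genes at 2 h, and at 4 h Snrpd1 was highest and Snrpg lowest, with 1.30 (1.14 to 1.49) and 1.18 per 1000 bp. At 10, 20 and 30 min and 2 and 4 h the peaks of these genes were 1.05, 1.01, 1.04, 1.08 and 1.04 times as long as at 0 min at the median, and 0.890 to 1.34 times over all of them. Per 1000 bp of peak their median ratio was 1.51, 1.69, 1.42, 1.78 and 1.45, where the median over all genes was 1.38, 1.5, 1.32, 1.67 and 1.36. The ratio per 1000 bp was above 1 in 10 of 10 genes at each time, against 96.8%, 98.7%, 93.1%, 99.3% and 94.5% of all genes compared.

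The median ratio of whole peaks of these genes was 1.61, 1.78, 1.55, 2.02 and 1.52 at 10, 20 and 30 min and 2 and 4 h, where the median over all genes with a Myc promoter peak at both times was 1.49, 1.66, 1.34, 1.87 and 1.46. Ratios were above 1 in 10 of 10 genes at each time, against 96.2%, 98.3%, 88.5%, 99% and 93.4% of all genes compared. Ratios of at least 1.5 were found in 8, 9, 6, 10 and 5 of 10 genes, against 48.9%, 68.5%, 31.9%, 84.9% and 44.7%. The 4 h count is near its background.

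The share of library tags inside Myc peaks moved with these values, at 9.26, 14.7, 16.3, 12.7, 18.3 and 14.3% from 0 min to 4 h. Counted per tag inside the peaks of its own library, the median ratio of these genes was 1.02, 1.01, 1.14 and 1.02 at 10, 20 and 30 min and 2 h and turned to 0.981 at 4 h, where the median over all genes was 0.940, 0.942, 0.981, 0.947 and 0.942. On that scale 5, 5, 8, 5 and 4 of 10 genes were above 1. The share of all genes above 1 was not counted, but the median over all genes was below 1 at each time.

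**Figure D4:**
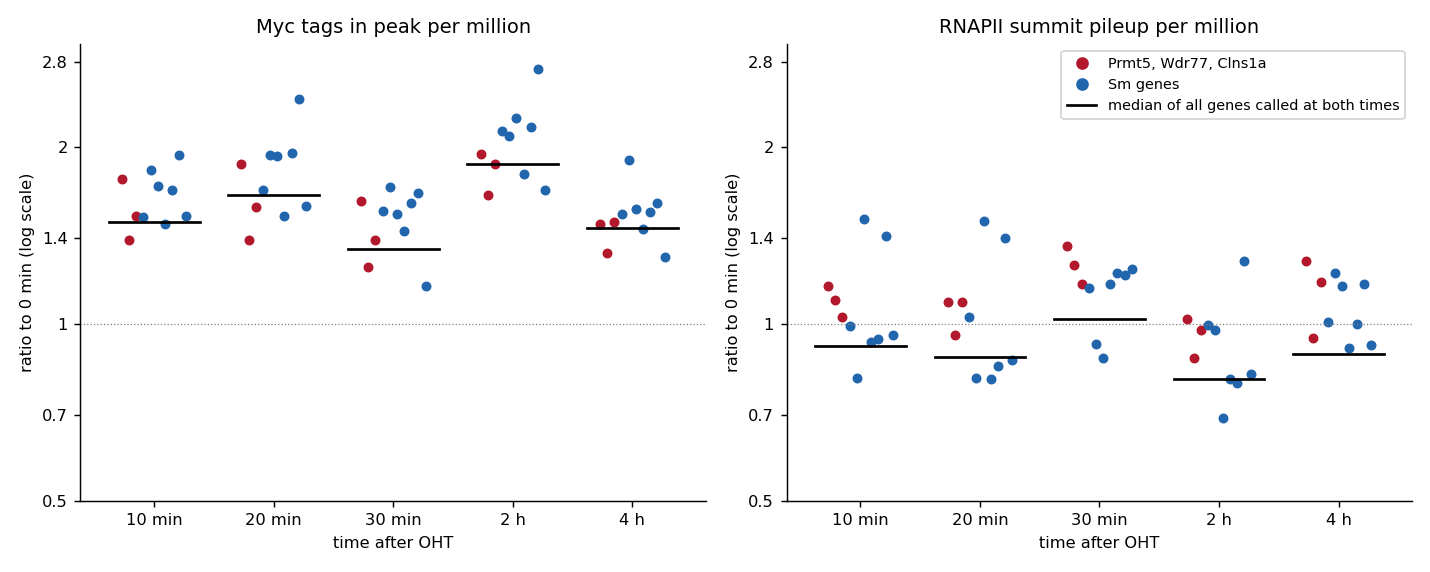
Ratio of each later time to 0 min (log axis) for Myc tags in the promoter peak, left, and RNAPII summit pileup, right, both per 1000000 library tags, the pileup in the broad lists. Points are genes, red for Prmt5, Wdr77 and Clns1a and blue for Sm genes, and bars are the median over all genes called at both times. All Myc points lie above 1 on this scale, though not per tag inside peaks, and RNAPII points lie on both sides of 1, with 8 of 10 above it at 30 min.

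RNAPII had a promoter peak at all 10 genes at all 6 times in both kinds of list. In the broad lists at 30 min and 2 h the Snrpd2 peak ended upstream of the gene, at −258 and −225 bp from its start. In the narrow lists the background was 47.5%, 47.3%, 48.4%, 46.4%, 46.3% and 46.8% of protein-coding genes from 0 min to 4 h, and in the broad lists 44.4%, 44.9%, 46.8%, 43.3%, 43.8% and 43.8%. The median narrow rank of these genes was 84.4, 89.1, 89.9, 86.9, 88.5 and 89.1%, where that of all genes with a peak was 75.7, 77.3, 80.7, 76.6, 75.9 and 75.7%. Above the median gene were 6, 7, 7, 6, 8 and 8 of 10. The highest 10% of narrow peaks held 4, 5, 5, 4, 4 and 3 of these genes. Of all protein-coding genes, with or without a peak, it held 10.2%, 11.1%, 13.2%, 10.4%, 10.2% and 10.2%. Among genes with a narrow promoter peak, 2277 of 10544 were there at 0 min and 2258 of 10393 at 4 h. By that measure the 4 h count of 3 of 10 is near its background.

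By fold, Prmt5 had the strongest narrow RNAPII peak of the 10 genes at 4 h, with 73.1 and a rank of 98.2%. Snrpf had the weakest, with 21.1 and 66.5%. In the broad list at 4 h Snrpg was highest with 59.0, and Prmt5 had 50.4. At 0 min Snrpd3 was highest with 52.2 and Snrpf lowest with 15.8. Prmt5 had narrow folds of 34.2, 41.4, 42.5, 47.4, 39.5 and 73.1 from 0 min to 4 h, with ranks of 81.0, 90.5, 91.5, 90.8, 92.7 and 98.2%. The Snrpd3 peak also covered the promoter of 1110038D17Rik, and its summit at 0 min lay at −865 bp from the Snrpd3 start. Wdr77 shared its RNAPII peak with the promoter of Atp5f1, which encodes a subunit of ATP synthase, Snrpd2 with that of Qpctl and Snrpg with that of Fam136a at all 6 times, so narrow values of these 4 genes are not theirs alone. Myc peaks of Wdr77, Snrpd2 and Snrpd3 also held the neighbour's promoter at all 6 times.

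Pileup at the RNAPII summit, deposited with the broad lists, does not depend on peak length and was scaled per 1000000 library tags. It was not adjusted for the fragment length of the caller, which ran from 340 bp at 20 min and 4 h to 373 bp at 30 min. Prmt5 had 7.13, 8.30, 7.75, 9.71, 7.30 and 9.16 from 0 min to 4 h, highest at 30 min and lowest at 0 min. Snrpd2 had 3.86, 5.85, 5.80, 3.38, 2.67 and 4.49, but at 30 min and 2 h the summit lay at −538 and −517 bp from its start, on the side of Qpctl. For Snrpd3 the broad summit lay at −864 bp at 0 min, on the side of 1110038D17Rik, and between −30 and 38 bp later, so its ratios compare different sites. Snrpf had 2.95, 4.15, 4.12, 3.56, 3.78 and 3.44, with 0 min lowest. Snrpg had the highest pileup of the 10 genes at every time, with 11.8, 11.3, 10.2, 14.6, 9.67 and 10.9.

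Later pileup values lay on both sides of those at 0 min, with and without Snrpd2 and Snrpd3. The median pileup ratio to 0 min was 1.01, 0.996, 1.19, 0.926 and 1.09 at 10, 20 and 30 min and 2 and 4 h, where all genes called at both times had medians of 0.917, 0.879, 1.02, 0.807 and 0.889. Above 1 were 5, 5, 8, 2 and 7 of 10 genes, against 32.8%, 27.7%, 54.5%, 16.9% and 28.8% of all genes. Relative to the median of all genes at that time, 9, 6, 8, 7 and 10 of 10 were above it. Without Snrpd2 and Snrpd3, 4, 4, 7, 2 and 6 of 8 were above 1, and 7, 5, 7, 7 and 8 of 8 above the median of all genes. A ratio of at least 1.25 was found in 2, 2, 2, 1 and 1 of 10, against 7.31%, 7.11%, 18.6%, 4.45% and 7.72%. These were Snrpd2 and Snrpf at 10 and 20 min, Prmt5 and Wdr77 at 30 min, Snrpf at 2 h and Prmt5 at 4 h.

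RNAPII cover of the gene body, the percent of a gene beyond its first 1000 bp that lies under peaks in the list, differed widely among the genes. In the narrow lists 4, 6, 4, 3 and 3 of 10 genes had cover higher than at 0 min by over 20 points at 10, 20 and 30 min and 2 and 4 h. The background was 12.9%, 22.1%, 9.22%, 10.5% and 7.32% of the 9763 genes of at least 3000 bp whose promoter had RNAPII at 0 min. In 7 of the 10 genes cover at 0 min was low enough to be higher by that much later, and among all genes with such room the background was 14.5%, 24.8%, 10.4%, 11.9% and 8.25%. Cover lower by over 20 points was found only in Snrpf at 10 min, 1 of 10, against 1.77% of genes.

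Among the methylosome genes, Prmt5 had narrow cover of 7.67, 38.1, 96.0, 48.0, 23.1 and 79.1% from 0 min to 4 h. It was high at 20 min and 4 h and lowest at 0 min. Clns1a, 22246 bp long, had 0, 11.5, 32.1, 1.37, 15.1 and 1.44%, with its highest value at 20 min. Wdr77 had 56.0, 59.4, 59.3, 59.6, 58.1 and 58.0%, but its annotation of 25232 bp runs past its longest protein-coding transcript, within which cover was 100% at the 5 later times, against 95.9% at 0 min. From 10 min on its RNAPII peak also held the promoter of Ovgp1.

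Snrpd1 and Snrpd2 encode Sm proteins that pair in the ring. Snrpd1 had 14.6, 100, 100, 78.2, 88.1 and 85.4% from 0 min to 4 h. Snrpd2, at 3014 bp the shortest gene of the 10, had 4.22, 100, 100, 95.4, 82.3 and 86.2%. The later values exceeded that at 0 min by 63.7 to 85.4 points in Snrpd1 and by 78.1 to 95.8 points in Snrpd2. At 10 and 20 min the RNAPII peak ran past the gene end, by 6590 and 6659 bp in Snrpd1 and by 5677 and 5966 bp in Snrpd2. The Snrpd2 peak then also reached Gipr. In the broad lists cover was 0% at 0 min in both genes and later at most 3.97% in Snrpd1 and 11.8% in Snrpd2.

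Snrpb and Snrpd3 encode another pair of Sm proteins, both with methylated tails. Snrpb was at 100% at all 6 times, and its RNAPII peak ran on past the gene end by 7872 bp at 0 min and by 7372 to 8861 bp over the 6 times. Snrpd3 had 62.6, 65.2, 97.3, 74.6, 86.3 and 73.2%, highest at 20 min.

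Snrpe, Snrpf and Snrpg encode the Sm proteins that form the remaining part of the ring. Snrpe had 76.4, 100, 100, 100, 94.2 and 58.7%, higher than at 0 min up to 2 h and lower at 4 h. At 10, 20 and 30 min its RNAPII peak ran 7576 to 7912 bp past the gene end. Snrpf had 98.6, 68.7, 100, 100, 100 and 85.8%, and its RNAPII peak reached Ccdc38 at 20 min, 30 min and 2 h. Snrpg was at 100% at all 6 times, with a peak that ran 4408 to 7644 bp past the gene end.

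The mean narrow cover of the 10 genes was 52.0, 74.3, 88.5, 75.7, 74.7 and 72.8% from 0 min to 4 h, where the mean over the 9763 genes was 21.6, 27.9, 33.0, 24.5, 25.7 and 22.7%. These genes are shorter, with a median length of 9164 bp against 24849 bp among the genes compared, and cover was not adjusted for length. The 20 min library was also the deepest, with 36396286 tags, and the 0 min library the shallowest, with 15276996. At 30 min and 4 h, with 16274905 and 16268203 tags, the mean difference from 0 min was 23.7 and 20.8 points and the median difference 7.79 and 1.70 points.

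**Figure D5:**
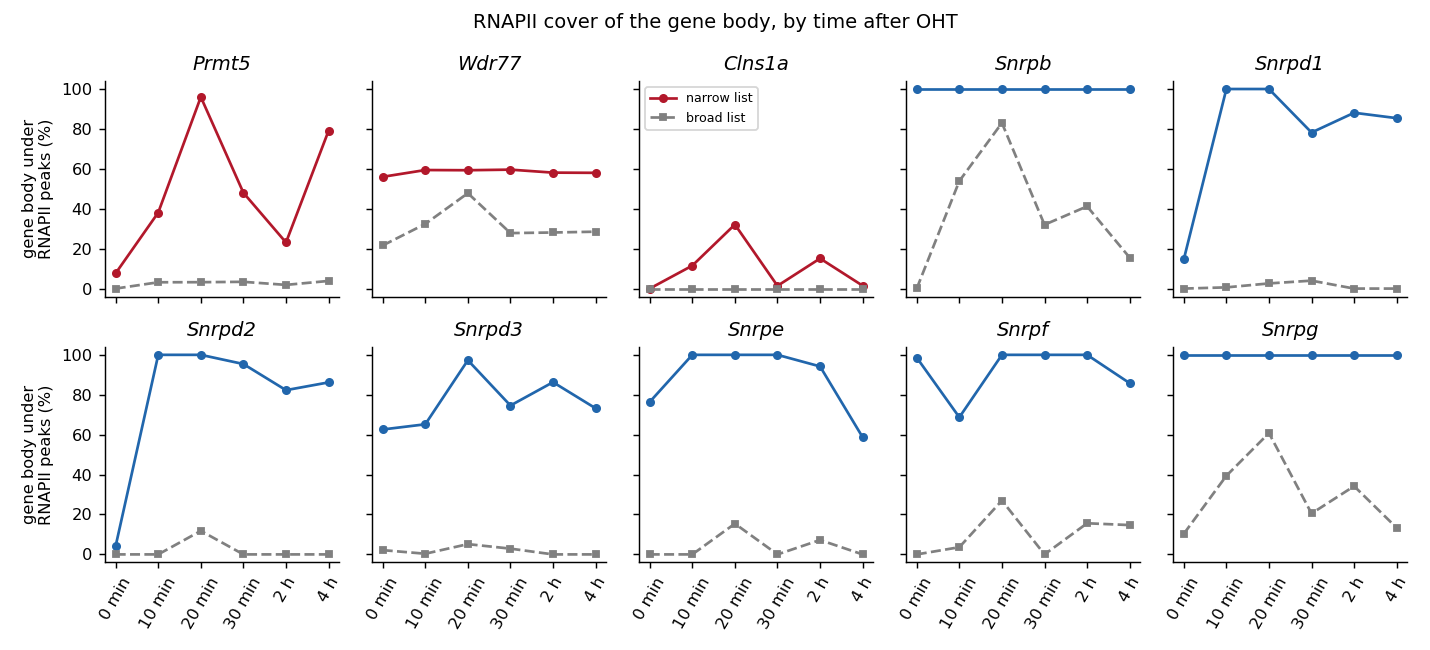
Percent of the gene body (beyond the first 1000 bp) under RNAPII peaks at 6 times after OHT, with 1 panel per gene, the narrow list as a solid line and the broad list as a dashed grey line. Snrpb and Snrpg stay at 100% in the narrow lists, Snrpd1 and Snrpd2 stand at 14.6 and 4.22% at 0 min, and the broad lists are highest at 20 min in 7 of 10 panels.

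Broad lists, made with another caller version from the same libraries, had shorter peaks and gave lower cover. Their mean over the 10 genes was 3.41, 13.3, 25.7, 9.05, 12.8 and 7.58% from 0 min to 4 h, where all genes had 5.37, 7.47, 11.6, 6.44, 7.01 and 6.00%. Snrpb, already full in the narrow lists, had 0.0429, 53.9, 83.0, 32.0, 41.2 and 15.5%, and Snrpg had 10.3, 39.4, 60.8, 20.5, 34.2 and 13.3%. Both were lowest at 0 min and highest at 20 min. Prmt5, by contrast, did not exceed 3.83% and Clns1a was at 0 at all 6 times.

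Broad cover higher than at 0 min by over 20 points was found in 2, 4, 1, 2 and 0 of 10 genes at 10, 20 and 30 min and 2 and 4 h, against 3.78%, 10.6%, 2.98%, 3.57% and 2.3% of all genes. These were Snrpb and Snrpg at 10 min and 2 h, with Wdr77 and Snrpf added at 20 min, and Snrpb at 30 min. Prmt5, Snrpd1, Snrpd2 and Snrpe, with higher narrow cover by over 20 points at 10 min, were not among them. Sm genes have processed pseudogenes in mammals, and how reads with several matches were placed is not given in the sources used here.

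Miz1 was not called at any of these promoters. It had a promoter peak at 0 of 10 genes in fibroblasts, against 8.25% of protein-coding genes, and at 0 of 10 in B cells, against 5.48%. Among genes that Myc occupied at the promoter at 4 h the background was 16.5% in fibroblasts and 10.4% in B cells. With so few genes, a count of 0 does not set them apart. The closest Miz1 peak to any of the 10 gene starts lay 10314 bp from that of Prmt5, in fibroblasts, with a fold of 5.96 and a rank of 46.0% in its list.

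Other genes of snRNP assembly, Sm-like rings and arginine methylation were read from a list of 37 symbols, of which 36 were matched and Lsm8 was not. Myc had a promoter peak at 34 of 36 of them at every time, against 44.7% to 48.9% of all protein-coding genes, missing Prmt8, a methyltransferase known from brain, and Snrpn, the imprinted paralogue of Snrpb. Their median Myc rank was 87.7% at 4 h and 85.1% at 0 min, between that of the 10 genes above and that of all genes. RNAPII had a narrow peak at 33 of 36 at 2 h, when Gemin8 was also missing, and at 34 of 36 at each other time, against 46.3% to 48.4% of all genes.

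By Myc fold at 4 h, the Sm-like genes Lsm7 with 76.9 and Lsm2 with 62.6 exceeded all 10 genes above. Lsm5 with 10.9 and Lsm6 with 14.3 were the lowest of their group. Among the other methyltransferases Prmt1, which makes asymmetric dimethylarginine, had 66.0 and Prmt3 53.2, and Carm1 had 14.5 and Prmt2 9.36. In the SMN complex Gemin7 had 59.9 and Gemin5, which recognises snRNA, 33.8, while Gemin8 had 23.1 and Gemin2, annotated as Sip1, 16.8.

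Tgs1, which makes the trimethylguanosine cap of snRNA, had a Myc fold of 41.2 at 4 h, Snupn, an import adaptor, 31.8, and Phax, an export adaptor, 12.1. Riok1, which binds Prmt5 in place of Clns1a, had 28.2, and Coprs, an adaptor of Prmt5 annotated as 2410022L05Rik, had 7.67. Among proteins of the U1 and U2 particles, Snrpa1 had 41.2 and Snrnp70 33.5, with Snrpc at 29.4 and Snrpb2 at 12.5.

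Miz1 was called at 7 of these 36 genes in fibroblasts, with a p cutoff of 1e-02, and at 4 of 36 in B cells, with a cutoff of 1e-05, so the counts are not comparable with each other. All genes had 8.25% and 5.48%, and genes with Myc at 4 h 16.5% and 10.4%. Snrpb2, Lsm5, Snrpa1 and Snrnp70 were called in both, with folds of 236.1, 172, 132.6 and 29.8 in fibroblasts and of 95.7, 88.0, 96.9 and 41.4 in B cells. Their fibroblast summits lay at −37, −86, 130 and −322 bp from a TSS and their ranks were 97.7% or more in fibroblasts and 95.3% or more in B cells. The other 3 fibroblast peaks, at Lsm4, Prmt1 and Carm1, had folds of 5.84, 4.47 and 6.70 and ranks of 15.0 to 59.1%.

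RNAPII narrow gene-body cover of the 32 genes of this list that met the length and peak conditions was higher than at 0 min by over 20 points in 7, 15, 7, 8 and 6 at 10, 20 and 30 min and 2 and 4 h, and lower in 1, 1, 0, 1 and 1. Over all genes compared, 12.9%, 22.1%, 9.22%, 10.5% and 7.32% were higher by that much, and 1.77%, 2.13%, 4.04%, 3.49% and 4.86% lower. Gemin5, Strap, Snrpa1 and Carm1 were among the higher ones at all 5 times in the narrow lists. In the broad lists 3, 7, 3, 3 and 4 genes were higher, against 3.78%, 10.6%, 2.98%, 3.57% and 2.3% of all genes, and of these 4 only Strap at 20 min was among them. The median Myc ratio to 0 min of the 34 genes with a peak was 1.58, 1.77, 1.46, 2.03 and 1.55, where all genes had 1.49, 1.66, 1.34, 1.87 and 1.46. At 4 h 19 of 34 reached 1.5, against 44.7% of all genes.

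Over the 6 Myc and 6 narrow RNAPII lists, the genes whose ranks were closest to the median profile of the 10 genes were 2310016C08Rik, Mipol1, Prps1l3 and Dpy19l4. Their mean absolute difference in rank over these 12 lists was 1.11, 1.18, 1.18 and 1.19 points. Mipol1 and Prps1l3 had the same values. Among the 10 genes themselves the difference ran from 1.67 points in Wdr77 and 1.69 in Snrpe to 9.56 in Snrpd2 and 14.0 in Snrpf.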

How the data were processed

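The submitters' processing notes name the aligner BWA 0.6.2-r126 and the build mm9. Peaks were called on single libraries against a control: Myc and narrow RNAPII with MACS 1.4.2 (p cutoff 1e-08, 1 tag kept per position), broad RNAPII with MACS 2.0.9 (1e-08, up to 2 tags) and Miz1 with MACS 2.0.9 (1e-02 in fibroblasts, 1e-05 in B cells), per the file headers. Tags per peak are unscaled counts, as deposited, from calls that kept 1 tag per position. They were divided here by the total tags of the header, and the effect of any tags removed as duplicates was not tested. Significance is a score of −10 times log10 p (MACS 1.4.2, at most 3100 here) or −log10 p and q (MACS 2.0.9), per the file headers. A peak's fold enrichment is the authors' ratio over the local background, the false discovery rate is a percent by the authors' caller, and summit pileup is a signal deposited with the MACS 2.0.9 lists. Libraries held 28132063 to 33431447 tags for Myc, 15276996 to 36396286 for RNAPII, and 10164509 (fibroblasts) and 24237295 (B cells) for Miz1.

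Gene symbols, TSSs and bodies came from GENCODE vM1 (NCBIM37), and sequence from the same build. Of the Miz1 peaks, 12 in fibroblasts and 8 in B cells lay on sequences not in the reference. They could be assigned to no gene but stayed among the peaks over which ranks were taken. Named genes are the 10 genes, the 2 highest and 2 lowest Myc folds at 4 h in each group of the wider list, its genes without a peak, and the 5 most like profiles, of which 1 is not reported here. Strap and Lsm4, and the genes named for Miz1 peaks or for cover in the wider list, were chosen after their values were seen. The members and lists were chosen with earlier results of these data known. The 1.5-fold, 1.25-fold and highest 10% counts, and the scalings per tag in peaks, per 1000 bp of peak and over the all-gene median, and the pileup without Snrpd2 and Snrpd3, were chosen after seeing values. Overlap and cover code was tested on simulated data. Python 3.11.15, pandas 2.3.3, numpy 2.4.6, scipy 1.17.1 and pysam 0.24.0 were used.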

Additional observations from a re-analysis of the deposited data

How the results depend on the processing

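No paired analysis was possible because each group held 1 library. Promoter counts of the 10 genes were varied for Myc and RNAPII at 0 min and 4 h and for both Miz1 lists, not at other times. They were the same with windows of 500 or 2000 bp, summits only, gene starts only or peaks above the median fold. The Myc and RNAPII counts were also the same with equal numbers of peaks. So were the RNAPII counts in broad lists and the fibroblast Miz1 count at the B cell cutoff. In broad lists gene-body cover was higher by over 20 points in 1 gene at 30 min and 0 at 4 h, and the mean difference was 5.64 and 4.17 points, against 23.7 and 20.8 in narrow lists. With the first 500 bp left out the mean difference was 21.1 and 18.6 points, with the first 2000 bp 24.7 and 20.0, and the median of the genes was 7.79 and 1.70. After the data were seen, Wdr77 was ended at its longest protein-coding transcript (23.8 and 21.0 points), Snrpb and Snrpg, full at 0 min, were left out (29.6 and 26.0), and Wdr77, Snrpd2, Snrpd3 and Snrpg, whose 0 min peak holds another promoter, were left out (21.7 and 18.9). Ranked by significance score, the median rank at 4 h was 92.8% for Myc, against 95.7% by fold, and 81.9% for RNAPII, against 89.1%. With the E-box variant the count at Myc summits was 5. The median Myc ratio to 0 min was 1.14 at 30 min and 0.981 at 4 h per tag inside peaks and 1.42 and 1.45 per 1000 bp of peak, against 1.55 and 1.52 per library tag. Relative to all genes, the median RNAPII pileup ratio was 1.16 and 1.22, and without Snrpd2 and Snrpd3 it was 1.22 and 1.09, against 1.19 and 1.09. The cause of these shifts was not tested. Depth limits peak calls: a deeper library lets weaker signal pass a fixed p.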
